A study of Mus musculus with 30 samples.

Results

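The 10 genes described here belong to the Notch pathway, which lets neighbouring cells signal to each other through membrane-bound proteins. They are Jag1 and Dll1 (ligands), Notch1, Notch2 and Notch3 (receptors), Rbpj (the DNA-binding factor of the pathway), and Hes1, Hes5, Hey1 and Nrarp (target genes). They make up 10 of the 17477 genes in the table and were picked by name because Nrarp is lower after isolation, so the housing contrast was used in choosing them and is given for them as a description with no p-value. RNA was sequenced from the hippocampus of 30 C57 BL/6J mice, weaned between postnatal days 21 and 25 and then kept for 60 days either alone in a cage (Social Isolation, SI) or with 3 or 4 mice per cage (Group Housed, GH). There were 8 SI and 7 GH females (animals 41 to 79) and 7 SI and 8 GH males (animals 1 to 39). No genetic change and no drug was part of the design, and each library is named here by its housing and animal number. Which GH mice shared a cage is not given in the sources used here, so p-values measure the spread between mice and not between cages.

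Notch signalling begins when a Delta or Jagged ligand on the surface of a cell binds a Notch receptor on its neighbour. Proteases then release the intracellular part of the receptor, which enters the nucleus, joins RBPJ and its coactivators and switches on target genes of the Hes and Hey families, whose products repress genes for neuronal differentiation. Nrarp is also a target, and its product binds the complex of the Notch intracellular part and RBPJ and dampens the signal, forming a negative feedback loop. In the adult hippocampus the pathway is known for holding neural stem cells of the dentate gyrus in an undifferentiated state, and its receptors are also made by astrocytes, mural cells, endothelium and neurons.

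Promoter windows were available for 8 of the 10 members from RefSeq (build GRCm38.p6), each running from 250 bases before to 50 bases after a transcription start. The windows of Nrarp and Hes5 are shown because these were the target genes with the most negative Log2FC in females. Nrarp lies at chr2:25180508-25180807 and Hes5 at chr4:154960673-154960972, both on the plus strand. Capitals mark the letters TGGGAA, the core of the RBPJ motif, or CACGTG, an E-box that Hey proteins can bind, on either strand (TTCCCA is the first motif read from the opposite strand, and CACGTG reads the same on both).
Nrarp: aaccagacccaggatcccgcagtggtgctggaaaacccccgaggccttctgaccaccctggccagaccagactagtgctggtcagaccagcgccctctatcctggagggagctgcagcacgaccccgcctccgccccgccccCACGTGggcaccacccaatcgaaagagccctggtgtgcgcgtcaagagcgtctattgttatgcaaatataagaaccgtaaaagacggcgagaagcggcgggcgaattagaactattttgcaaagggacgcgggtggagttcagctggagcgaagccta
Hes5: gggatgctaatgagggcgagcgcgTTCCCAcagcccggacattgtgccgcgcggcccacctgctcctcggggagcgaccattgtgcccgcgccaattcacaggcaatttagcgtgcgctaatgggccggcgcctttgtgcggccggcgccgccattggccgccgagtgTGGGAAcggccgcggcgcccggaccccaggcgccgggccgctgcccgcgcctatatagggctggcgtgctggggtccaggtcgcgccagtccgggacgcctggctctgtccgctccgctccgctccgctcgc
The Hes5 window held 2 RBPJ cores, starting 226 bases upstream of the start on the minus strand and 82 bases upstream on the plus strand, and the Nrarp window held 1 E-box, starting 108 bases upstream, and no RBPJ core. Of the other members with a window, Rbpj held 3 RBPJ core matches over 2 overlapping windows. The same minus-strand site was counted in both windows, 65 bases upstream of the first start and 205 upstream of the second. Jag1, Dll1, Notch1, Notch2 and Notch3 held neither motif. Of all 32851 windows of this length, 25.6% held an RBPJ core and 7.15% held the E-box. These matches describe the letters of the windows and say nothing of binding.

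The libraries held between 18809307 and 100844898 counts. In 3 SI males, animals 25, 33 and 39, long transcripts were depleted: the slope of a gene's log2 deviation from its mean over all mice on the log2 of its transcript length lay between -0.48 and -0.37 per doubling of length, against -0.13 to 0.18 in the other 27 mice. These 3 libraries also lay apart from the other 12 males on the first principal component, which took 54.2% of the variance among males. The Log2FC values of males are therefore given with and without them. Markers of neurons (Slc17a7, 827 to 1909 CPM) and of the dentate gyrus (Prox1, 33.4 to 98.2 CPM) were detected in every library, as hippocampal tissue should hold. CPM here is the share of a library's counts scaled to the usual common depth, after adjustment by the trimmed mean of M-values (TMM).

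Within GH mice the target genes stood above the receptors and the receptors above the ligands, once levels were divided by transcript length. Hey1, a transcriptional repressor, was highest at 22.4 ± 1.56 CPM per kilobase (SD, n = 15 GH mice). Hes5, a repressor typical of stem cells and astrocytes, reached 14.5 ± 2.78 and Nrarp 14.4 ± 2.21 CPM per kilobase, and Hes5 was above Nrarp in 7 of 15 mice, so these neighbours in the order did not differ beyond their spread. Hes1 followed at 8.39 ± 1.34. Notch1 (4.34 ± 0.427), Rbpj (3.79 ± 0.285) and Notch2 (3.33 ± 0.617 CPM per kilobase) formed a middle group, in which Notch1 exceeded Rbpj in 14 and Rbpj exceeded Notch2 in 13 of 15 mice. Notch3, the receptor best known from mural cells, stood at 1.77 ± 0.25, Dll1 at 1.70 ± 0.207 and Jag1 at 1.41 ± 0.2 CPM per kilobase, with Notch3 above Dll1 in only 10 of 15 mice. On this scale Hey1 lay at the 79.1st percentile of tested genes and Jag1 at the 23.6th.

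Nrarp (ENSMUSG00000078202, chromosome 2) was lower in isolated females. In GH females its level ran from 34.2 CPM (animal 71) through a median of 41.4 to 47.6 CPM (animal 78), with a mean of 41.1 ± 4.02 CPM (SD, n = 7). In SI females it ran from 25.5 CPM (animal 49) through a median of 31.2 to 38.6 CPM (animal 41), with a mean of 31.0 ± 3.85 CPM (SD, n = 8). Of the 8 SI females, 7 lay below the lowest GH female, and animal 41 alone reached into the GH range. The ratio of the SI to the GH mean was 0.755, and the fitted Log2FC (SI minus GH, with surrogate variables for unlabelled sources of variation) was -0.39 (SE 0.0598). Leaving out each female in turn moved this value between -0.43 and -0.35. Raw counts behind these values were never below 506 in any of the 30 libraries, so counting error is small beside the spread between mice.

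The last digit of the sample labels marks 4 sets of libraries in each sex, and Nrarp was compared within them. In females the SI mice lay between 25.5 and 32.4 CPM in the first set against 40.4 and 42.4 CPM in GH. The second set held SI values of 31.9 and 38.6 CPM against GH values of 39.1 and 47.6 CPM. In the fourth set SI ran from 29.0 to 32.2 and GH from 34.2 to 42.3 CPM. Every SI female thus lay below every GH female within each of these sets, and the third held 2 SI females and no GH female. Nrarp was chosen on these same values, so this is a description. How many other genes show the same was not counted. With this digit as a factor in place of the surrogate variables, no gene of the whole table passed the threshold.

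In males Nrarp overlapped far more between the housing groups. GH males ran from 26.3 CPM (animal 22) through a median of 34.3 to 40.7 CPM (animal 15), and SI males from 21.5 CPM (animal 25) through 28.7 to 35.1 CPM (animal 8). Only 2 of 7 SI males lay below the lowest GH male, and these were animals 25 and 33, which belong to the 3 libraries that stand apart. Within the label sets, the first held SI males from 21.5 to 29.5 CPM and a single GH male at 28.5 CPM, the second held SI males at 28.7 and 35.1 CPM against GH males at 26.3 and 33.8 CPM, and in the third 2 SI males at 27.7 and 32.3 CPM lay below 4 GH males at 32.4 to 40.7 CPM. The Log2FC was -0.16 (SE 0.101), and it was -0.01 without animals 25, 33 and 39. The difference of the housing change between females and males was -0.19 on the Log2FC scale (SE 0.113). GH females exceeded GH males by 0.35 (SE 0.0771) in a fit over all 30 mice, and by 0.27 without the 3 SI males, a contrast that shares its GH females with the one Nrarp was chosen on. The mean of SI females, 31.0 CPM, lay within the range of GH males, and SI female 49, at 25.5 CPM, lay below it.

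**Figure D1:**
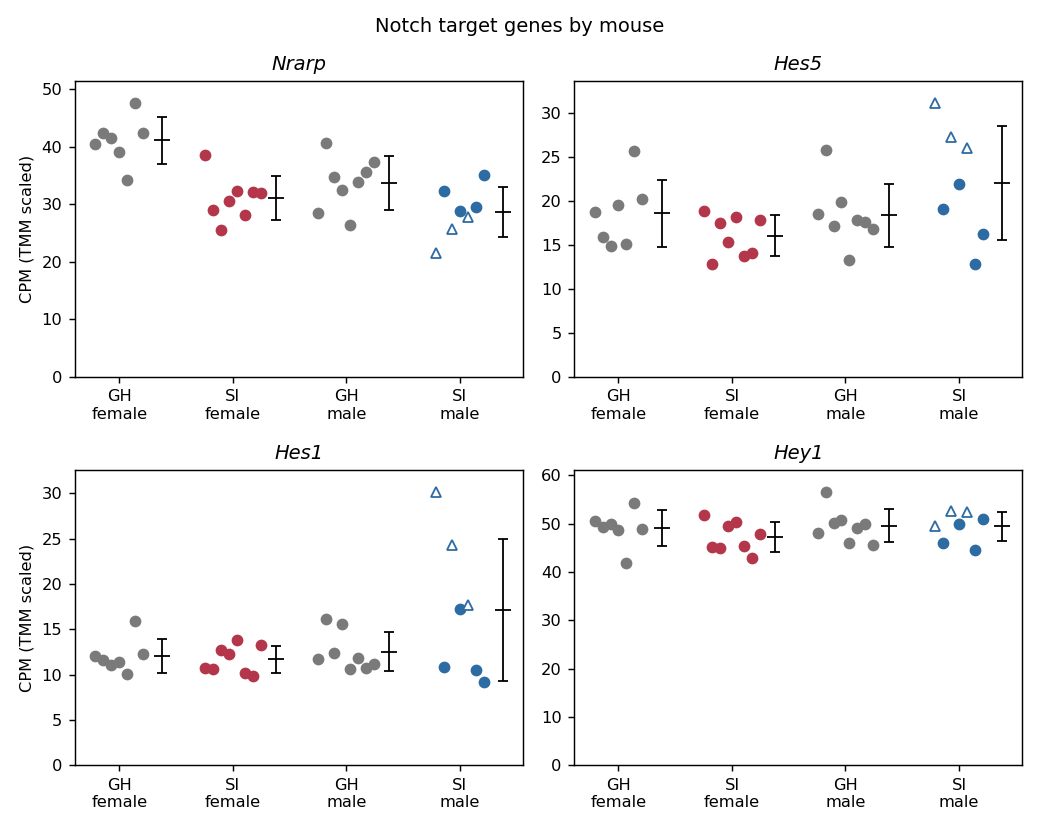
CPM (TMM scaled, linear axis from 0) of the 4 target genes in each mouse by group, with the mean and SD as bars beside the points and open triangles for SI males 25, 33 and 39. For Nrarp, 7 of 8 SI females lie below the lowest GH female at 34.2 CPM, whereas Hes1 and Hes5 are raised in the open triangles.

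The other target genes did not share the separation seen for Nrarp. In Hes5, GH females ran from 14.8 through 18.8 to 25.7 CPM and SI females from 12.8 through 16.4 to 18.8 CPM, so that 3 of 8 SI females lay below all GH females and the Log2FC was -0.20 (SE 0.0742). Hes1, an oscillating repressor of proneural genes, ran from 10.03 through 11.7 to 15.96 CPM in GH females and from 9.83 through 11.5 to 13.9 CPM in SI females, with a Log2FC of -0.05 (SE 0.0667). Hey1 ran from 41.8 through 49.4 to 54.3 CPM in GH and from 42.9 through 46.6 to 51.7 CPM in SI females, and its Log2FC was -0.05 (SE 0.0376). Hes1 and Hey1 therefore overlapped almost wholly between housing groups in females. In males the Log2FC of Hes5 was -0.04 (SE 0.111), that of Hes1 -0.01 (SE 0.124) and that of Hey1 -0.04 (SE 0.0587), and without animals 25, 33 and 39 these were -0.06, -0.21 and -0.06. The direction of Hes1 and Hes5 in males depended on the fit, since without surrogate variables their Log2FC was 0.45 and 0.27.

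The 3 receptors each had a Log2FC below 0 in both sexes, and none was called by edgeR, whereas DESeq2 with the same surrogate variables called Notch1 in females. Notch1 ran from 36.6 through 44.3 to 47.5 CPM in GH females and from 26.8 through 38.1 to 42.2 CPM in SI females, with a Log2FC of -0.18 (SE 0.061). Notch2, a close relative with a role in quiescent stem cells, ran from 27.1 through 36.9 to 52.8 CPM in GH and from 21.9 through 36.1 to 41.5 CPM in SI females, with a Log2FC of -0.13 (SE 0.0497), which was -0.05 without GH female 71 and -0.22 without GH female 46. Notch3 ran from 11.5 through 13.9 to 17.6 CPM in GH and from 7.47 through 13.7 to 17.6 CPM in SI females, with a Log2FC of -0.15 (SE 0.0901), which was -0.07 without SI female 53. The groups overlapped in each receptor, and SI female 53 held the lowest value of all females in Notch1, Notch2 and Notch3. That library also had the lowest length slope of the 27 mice, at -0.13 per doubling. In males the Log2FC was -0.21 (SE 0.0725) for Notch1, -0.25 (SE 0.0946) for Notch2 and -0.08 (SE 0.103) for Notch3, and without animals 25, 33 and 39 it was -0.08, -0.09 and 0.04.

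The ligands and Rbpj overlapped widely between housing groups in females. Jag1 ran from 5.89 through 7.41 to 9.59 CPM in GH and from 6.27 through 8.06 to 9.55 CPM in SI females, and no SI female lay outside the GH range (Log2FC -0.02, SE 0.092). Dll1 ran from 5.21 through 5.67 to 7.09 CPM in GH and from 5.33 through 6.34 to 6.91 CPM in SI females, again with no SI female outside the GH range (Log2FC 0.01, SE 0.0683). Rbpj ran from 18.5 through 21.4 to 24.95 CPM in GH and from 18.1 through 20.7 to 22.96 CPM in SI females (Log2FC -0.04, SE 0.0466). In males the Log2FC was -0.12 (SE 0.0849) for Jag1, 0.03 (SE 0.119) for Dll1 and -0.07 (SE 0.0678) for Rbpj. Of the 7 SI males, 3 lay below the lowest GH male for Jag1, 4 for Dll1 and 5 for Rbpj. Without animals 25, 33 and 39 the values were -0.06, -0.16 and 0.02, so Dll1 and Rbpj changed sign, and without surrogate variables Jag1 reached -0.31 and Dll1 -0.20.

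**Figure D2:**
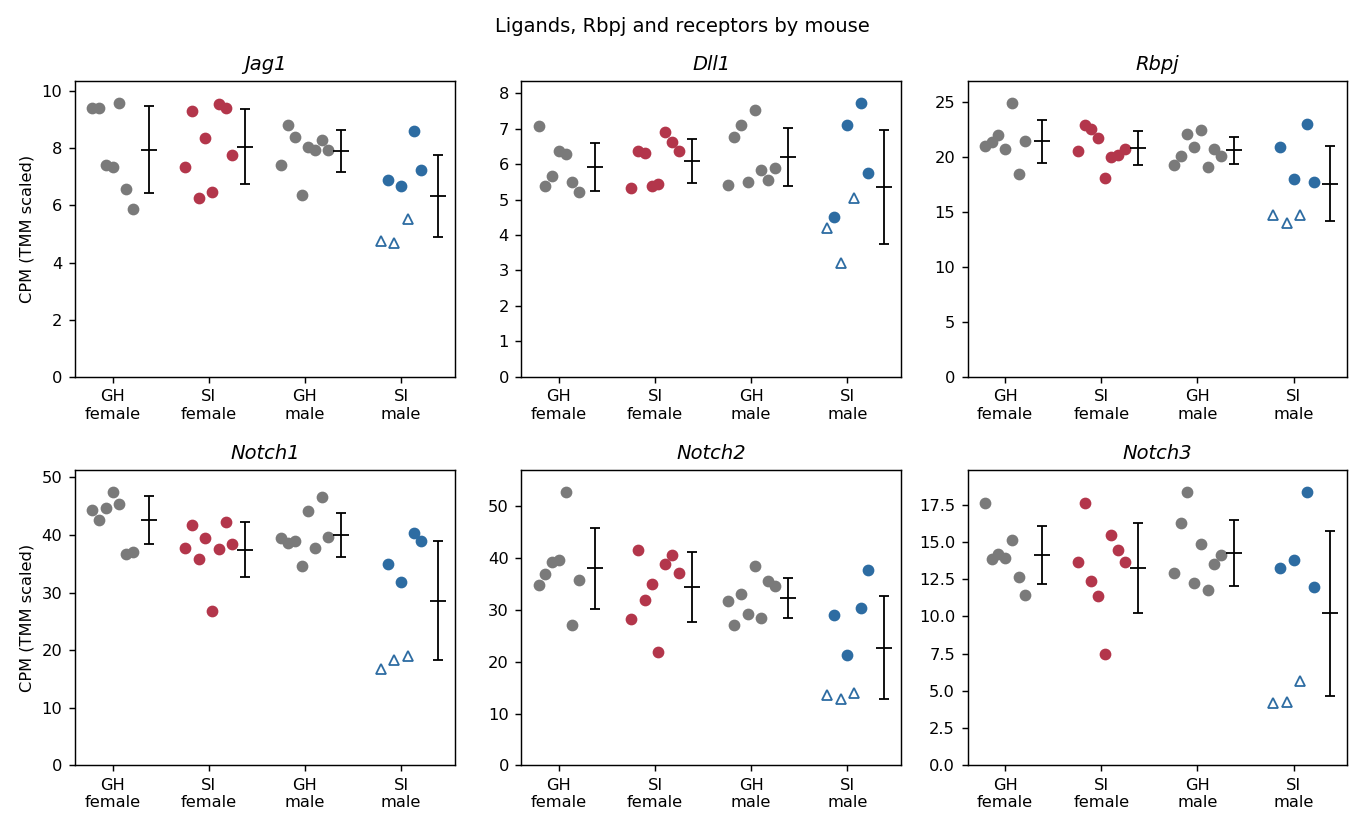
CPM (TMM scaled, linear axis from 0) of the ligands, Rbpj and the receptors in each mouse by group, with the mean and SD as bars beside the points and open triangles for SI males 25, 33 and 39. The triangles lie at 16.7 to 19.01 CPM for Notch1, below every other mouse.

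By the threshold set for all genes (edgeR adjusted p below 0.05), 1 of the 10 members was called in females, Nrarp, lower in SI. The members were chosen on this contrast, so this count and those below are a description and nothing is read from them. Over all 16026 genes tested in females 3.89% were called, made up of 2.93% that were lower and 0.961% that were higher in SI. No member was separated completely between the groups, against 0.187% of genes that were lower and 0.112% that were higher in SI without overlap. The fitted Log2FC was below 0 for 9 of 10 members in females, with a median of -0.09, against 47.2% of all genes and a median of 0.01. In males it was below 0 for 9 of 10, with a median of -0.07, against 50.7% of all genes and a median of -0.00197, and 0 members were called, as were 0% of 15833 genes by the edgeR quasi-likelihood test. No member was separated completely in males either, against 0.0253% of genes lower and 0.0316% higher in SI without overlap. Without animals 25, 33 and 39 the Log2FC was below 0 for 8 of 10 members in males, with a median of -0.06, against 52.3% of all genes. No count of members by unadjusted p is given, because the members were chosen on the housing contrast. In males 44 genes of the whole table but no member passed the adjusted threshold when DESeq2 was used with the same surrogate variables. All 10 members passed the filter on low counts in both sexes.

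**Figure D3:**
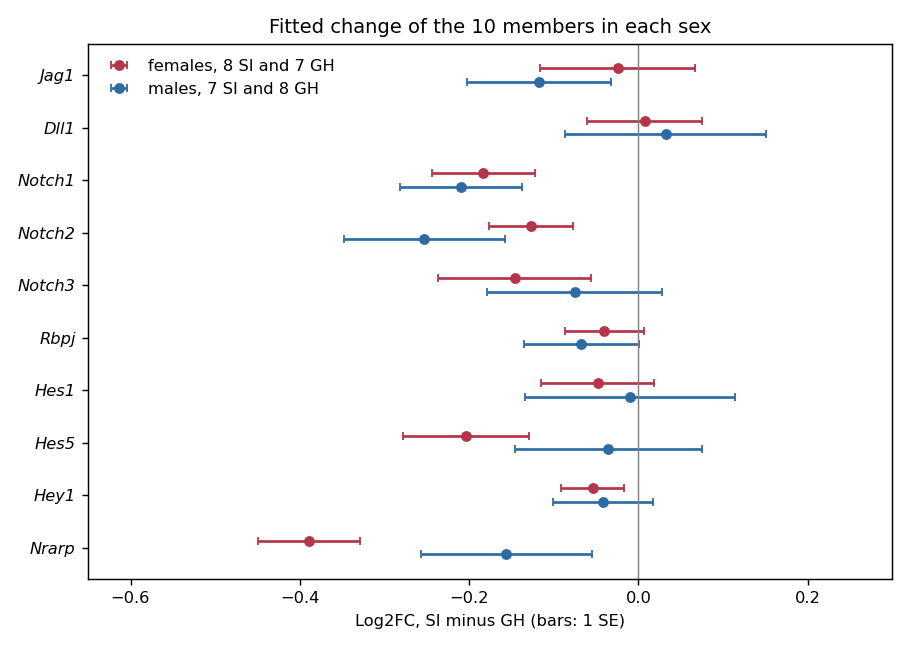
Fitted Log2FC (SI minus GH) of the 10 members in females (8 SI, 7 GH) and males (7 SI, 8 GH), with bars of 1 SE. Nrarp in females, at -0.39, lies farthest from 0, and 9 of 10 points lie below 0 in each sex.

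The sexes were compared within GH mice, and this was tested for the 9 members other than Nrarp, although its GH females also enter the housing contrast. With edgeR none of the 9 was called, and 6.31% of 16391 genes were called. DESeq2 with the same surrogate variables called Notch2. In the edgeR fit the nearest was Notch2, 0.20 higher in females on the Log2FC scale (SE 0.0655, edgeR adjusted p = 0.0615), with the same contrast at 0.11 (adjusted p = 0.467) without SI males 25, 33 and 39, which enter the fit through the shared spread and surrogate variables. The other 8 members had Log2FC values between -0.13 (Dll1) and 0.06 (Notch1). The difference of the housing change between the sexes includes the contrast the members were chosen on and is given for these 9 as a description. It ran from -0.07 (Notch3, SE 0.132) to 0.08 (Jag1, SE 0.12) on the Log2FC scale, and 0% of all genes were called for it.

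In the 3 SI males that stand apart, the members followed the length of their transcripts. Notch1 lay between 16.7 and 19.01 CPM there, against 31.9 to 40.4 in the other 4 SI males and 34.7 to 46.6 in GH males. Notch3 lay between 4.20 and 5.69 CPM against 12.01 to 18.4 in the other SI males and 11.8 to 18.4 in GH males, and Notch2 between 12.9 and 14.0 CPM against 21.4 to 37.8 and 27.2 to 38.5. Against the mean of GH males the 3 libraries averaged -1.60 for Notch3, -1.26 for Notch2 and -1.15 for Notch1 on the log2 scale, the 3 longest transcripts of the set at 8044, 10506 and 9488 bases. The shortest behaved in the opposite way. Hes1, at 1468 bases, reached 17.7 to 30.2 CPM against 10.7 to 16.2 in GH males, and Hes5, at 1273 bases, reached 26.0 to 31.2 CPM against 13.3 to 25.8. Hey1, at 2203 bases, stayed within the GH range at 49.6 to 52.5 CPM. Nrarp, at 2573 bases, averaged -0.43 on the log2 scale. Over the 10 members the Spearman rho of length with this log2 ratio was -0.939, a description across genes measured in the same 3 libraries.

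**Figure D4:**
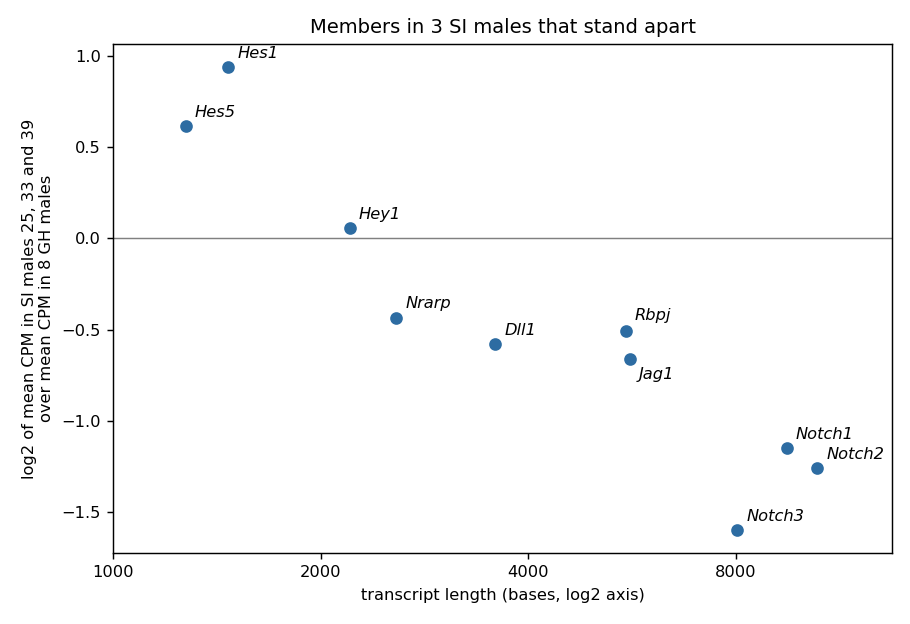
Log2 of the mean CPM in SI males 25, 33 and 39 over the mean in 8 GH males against transcript length (log2 axis), 1 point per member. The ratio falls from 0.94 for Hes1 at 1468 bases to -1.60 for Notch3 at 8044 bases.

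Among the other 27 mice several members also varied with the length slope, over a narrower range of slopes. With group means removed, the length slope of a library was related to the log2 CPM of a member in 20 relations, computed over 15 females and over 12 males without animals 25, 33 and 39. In females the receptors rose with the slope and the Hes and Hey targets fell. Notch2 had r = 0.895 (rho = 0.804, permutation test, adjusted p = 0.0011 for r and 0.0111 for rho) and still 0.734 without the 2 libraries farthest from the median slope. Hes5 had r = -0.737 (rho = -0.689, permutation test, adjusted p = 0.00895 and 0.029, and -0.591 without 2 libraries). Hes1 (r = -0.78), Hey1 (-0.744) and Notch3 (0.742) also passed by r and rho (permutation test, adjusted p from 0.00895 to 0.029). Without 2 libraries their r was -0.506, -0.68 and 0.554. Rbpj passed by r alone, at 0.735 (rho = 0.393, permutation test, adjusted p = 0.0123 and 0.205, and 0.362 without 2 libraries). Jag1 and Dll1 did not pass (r = 0.567 and 0.532, permutation test, adjusted p from 0.0564 to 0.0715). In males Hes5 had r = -0.903 (rho = -0.951, permutation test, adjusted p = 6e-04 for both, and -0.817 without 2 libraries), and Notch2 had r = 0.786 (rho = 0.755, permutation test, adjusted p = 0.0237 and 0.0364, and 0.823 without 2 libraries). Hes1 in males also passed, with r = -0.734 (rho = -0.727, permutation test, adjusted p = 0.0298 and 0.0415, and -0.759 without 2 libraries). The other receptors, the ligands, Rbpj and Hey1 in males were not past the threshold. Hey1 had r = -0.626 (rho = -0.657, permutation test, adjusted p = 0.0714 and 0.0738, and -0.435 without 2 libraries). Notch1 had rho = 0.713 (permutation test, adjusted p = 0.0714 for r and 0.0528 for rho, and r = 0.433 without 2 libraries). Notch3 had r = 0.38 (rho = 0.266, adjusted p = 0.312 and 0.456, and 0.0864 without 2 libraries). Dll1 had r = 0.348 (rho = 0.427, adjusted p = 0.406 and 0.283, and -0.12 without 2 libraries). Jag1 had r = 0.442 (rho = 0.476, adjusted p = 0.227 and 0.205) and Rbpj r = 0.525 (rho = 0.364, adjusted p = 0.224 and 0.383). Notch1 in females did not hold in this way, since its r of 0.696 (rho = 0.536, permutation test, adjusted p = 0.0244 and 0.0738) dropped to 0.152 without the 2 libraries farthest from the median, and so rested on them. Nrarp was not past the threshold in either sex (females r = -0.527, rho = -0.557, permutation test, adjusted p = 0.0758 and 0.0738; males r = -0.225, rho = -0.14, adjusted p = 0.46 and 0.679). The slopes ran from -0.13 to 0.17 in SI and from -0.11 to 0.14 in GH females, so they overlapped between the housing groups. With each library's length and GC trend removed before the fit, the Log2FC in females was -0.40 for Nrarp, -0.15 for Notch1, -0.12 for Notch2, -0.09 for Notch3 and -0.19 for Hes5.

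Nrarp was set against each of the other 9 members across mice, again with group means removed (18 relations), since the label sets held too few mice for a value within each. Only that with Hey1 in females passed, with r = 0.761 (permutation test, adjusted p = 0.0338, n = 15), but its rho of 0.671 did not (permutation test, adjusted p = 0.178). The relation rose to r = 0.871 without the 2 mice farthest from the median of Hey1. Once the length slope was also removed, a step chosen after the data were seen, r was 0.651 (permutation test, adjusted p = 0.177). Among the 12 males the relation with Hey1 had r = 0.541 and rho = 0.385 (permutation test, adjusted p = 0.257 and 0.425), and with the 3 libraries that stand apart included r was 0.191. With those 3 included, the relation with Jag1 in males had r = 0.619 and rho = 0.757 (permutation test, adjusted p = 0.098 and 0.0371), so it passed by rho alone. In females Rbpj (r = -0.642), Notch2 (r = -0.583) and Dll1 (r = -0.553) had a negative and Hes5 (r = 0.518) a positive r, none past the threshold (permutation test, adjusted p from 0.122 to 0.182). The genes whose centred log2 CPM was most like that of Nrarp over the 15 females were Krt12 (r = 0.914), Nanos1 (0.874), Garnl3 (0.853), Camk1 (0.849) and Lnx1 (0.847), out of 16025 compared. Over the 12 males they were Zfp27 (0.929), Vmn2r84 (0.926), Trub2 (0.905), Irak1bp1 (0.901) and Gimap6 (0.9), out of 16240 compared and none of them shared with the females. Each list holds the highest values of a very large number over few mice. Whether chance alone gives values as high was not tested.

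Of 55 further pathway genes, 54 passed the filter on low counts and Hes3 did not. In females 3 of these 54 were called, all lower in SI, beside the 3.89% called over all genes. Lfng, a fringe glycosyltransferase that modifies Notch receptors and changes their response to ligands, ran from 21.3 through 23.7 to 27.8 CPM in GH and from 16.4 through 19.4 to 21.8 CPM in SI females. Of the 8 SI females, 7 lay below the lowest GH female, and the Log2FC was -0.32 (SE 0.0542, edgeR adjusted p = 0.00703). It remained called without any single female, and its adjusted p was 0.0864 without surrogate variables and 0.151 with the label digit as a factor. In males Lfng ran from 16.8 through 20.1 to 26.8 CPM in GH and from 16.5 through 19.9 to 22.4 CPM in SI, with a Log2FC of -0.06 (SE 0.108, adjusted p = 0.838), and -0.08 without animals 25, 33 and 39.

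Neurl1a and Neurl1b encode neuralized E3 ubiquitin ligases, a family that promotes endocytosis of Notch ligands. Neurl1a ran from 351.5 through 423 to 514 CPM in GH and from 278 through 336 to 403 CPM in SI females, with 7 of 8 SI females below the lowest GH female and a Log2FC of -0.29 (SE 0.0578, edgeR adjusted p = 0.0121). Neurl1b ran from 75.8 through 97.2 to 102 CPM in GH and from 58.4 through 69.0 to 100.9 CPM in SI females, with 5 of 8 SI females below the lowest GH female and a Log2FC of -0.30 (SE 0.0677, adjusted p = 0.022). Without SI female 45 or 63 neither was called, and Neurl1b was also lost without SI female 49, 68 or 73 or GH female 48 or 54. In males the Log2FC of Neurl1a was -0.26 (SE 0.11, adjusted p = 0.355) and that of Neurl1b -0.45 (SE 0.101, adjusted p = 0.295), with 5 of 7 SI males below the lowest GH male for each. Without SI males 25, 33 and 39 these values were -0.12 and -0.28. The difference of the housing change between the sexes was not past the threshold for Lfng (-0.16, SE 0.105, edgeR adjusted p = 0.76), Neurl1a (-0.01, SE 0.125, adjusted p = 0.989) or Neurl1b (0.14, SE 0.136, adjusted p = 0.847).

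The remaining 51 pathway genes were not called in females by edgeR. DESeq2 with the same surrogate variables called 2 of them, Dlk2 and Hdac2, each fitted higher in SI by edgeR. The edgeR Log2FC was 0.26 for Dlk2 (SE 0.0729, adjusted p = 0.0548) and 0.15 for Hdac2 (SE 0.0462, adjusted p = 0.0865). For Hdac2 all 8 SI females, from 61.4 CPM, lay above the highest GH female at 61.2 CPM. Of all genes, 0.112% were higher in SI females without overlap. In males none of the 54 was called by edgeR, and DESeq2 with the same surrogate variables called 1, Neurl1b. There 15 lay below an unadjusted p of 0.05 (27.8%, against 13% of all genes), 8 lower and 7 higher in SI. That fit includes animals 25, 33 and 39. In females 14 of 54 lay below an unadjusted p of 0.05 (25.9%, against 20.2% of all genes), 9 lower and 5 higher in SI. The median Log2FC over the 54 genes was 0.000705 in females and -0.000274 in males, and 26 and 27 of them were fitted below 0. After Neurl1b, the smallest unadjusted p-values in males belonged to Mib1, another ligase acting on Notch ligands (Log2FC -0.25, SE 0.0788, edgeR adjusted p = 0.3), and Spen, a corepressor that binds RBPJ (Log2FC -0.33, SE 0.113, adjusted p = 0.317). Without animals 25, 33 and 39 these values were -0.07 and -0.15. The transcripts of Mib1 and Spen measure 10231 and 12299 bases, and in both the lowest SI males, at 82.3 CPM for Mib1 and 24.5 CPM for Spen, were among the 3 libraries depleted of long transcripts. Between GH females and GH males 4 of the 54 were called by edgeR, all lower in females, beside 6.31% of all genes, and nothing is read from this count. They included Numbl (-0.26, SE 0.0593, edgeR adjusted p = 0.016), Dlk2 (-0.25, SE 0.0738, adjusted p = 0.0396) and Kat2a (-0.16, SE 0.05, adjusted p = 0.0472), named because of their values. Calls over all genes for this contrast were 1035, but 150 without SI males 25, 33 and 39 and 16 without surrogate variables.

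**Figure D5:**
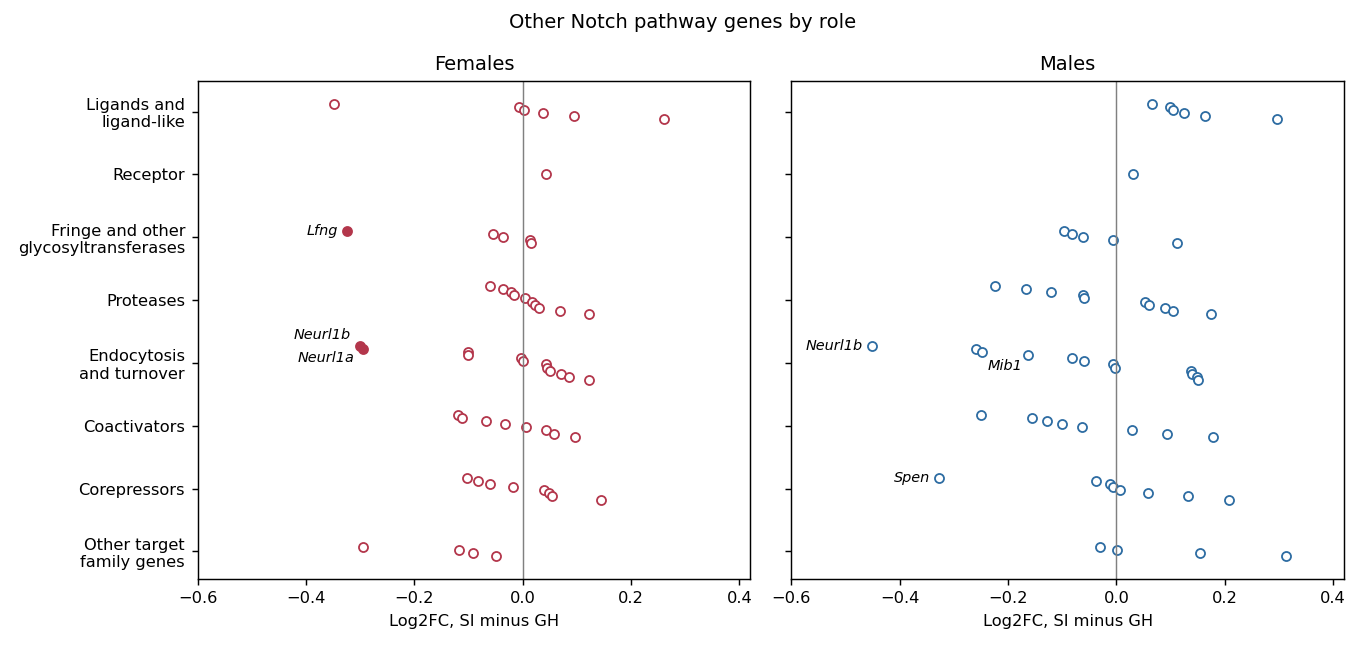
Fitted Log2FC (SI minus GH) of 54 further Notch pathway genes by role, in females and males, 1 point per gene, filled where the edgeR adjusted p was below 0.05. Lfng, Neurl1a and Neurl1b are filled in females at -0.32 to -0.29, and no point is filled in males, where Neurl1b, at -0.45, lies farthest from 0.

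Markers of cell types moved with housing in females beside Nrarp. The mean log2 CPM of 8 astrocyte markers was 0.23 lower in SI than in GH females (7.97 ± 0.14 against 8.20 ± 0.109, SD, n = 8 and 7). In a two-sided exact permutation test that took in all 6435 splits, p was 0.00373, and 0.0373 when adjusted for 20 pairs of list and sex. All 8 were fitted below 0 and 3 were called: Slc1a2 (-0.28) and Slc1a3 (-0.24), the glutamate transporters of astrocytes, and Aldh1l1 (-0.27). Over all genes tested in females 3.89% were called. Calls of markers come from the fit with surrogate variables, without which no gene of the table was called in females. The permutation tests used log2 CPM without a fit. The summed level of the 8 astrocyte markers ran from 3692 to 5069 CPM in SI and from 4355 to 6021 CPM in GH females. In males the list was 0.24 lower in SI (exact permutation test, p = 0.0129, adjusted p = 0.086, n = 7 and 8), and 0.14 lower without animals 25, 33 and 39. The mean of 7 endothelial markers was 0.16 higher in SI females (4.69 ± 0.0783 against 4.53 ± 0.0866, n = 8 and 7, exact permutation test, p = 0.000466, adjusted p = 0.00932), with 1 gene called, Flt1. The mean of 8 neural precursor markers did not pass (-0.08, exact permutation test, p = 0.23, adjusted p = 0.458, n = 8 and 7), with 1 gene called lower, Hopx (Log2FC -0.25, edgeR adjusted p = 0.00703), which astrocytes also express. On the same log2 CPM scale and without a fit, Nrarp was 0.41 lower in SI females, Hes5 0.20, Notch1 0.19 and Notch2 0.15. Notch3 was 0.12 lower, Hey1 0.05, Hes1 0.04 and Rbpj 0.04, whereas Jag1 was 0.03 and Dll1 0.04 higher. None of the other 7 lists (mural, oligodendrocyte, oligodendrocyte precursor, microglia, choroid plexus, neuron and hippocampus) passed in either sex (exact permutation tests, adjusted p from 0.311 to 0.971), though the summed choroid plexus markers ran from 38.7 to 4145 CPM among SI males. No defining marker of the astrocyte or endothelial list was at 0. Whether the astrocyte and endothelial markers had a part in the values of Nrarp and the other members was not tested, and in tissue of mixed cells fewer cells of a type and less RNA per cell cannot be told apart.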

How the data were processed

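Hippocampal RNA from 30 mice was sequenced after polyA selection. Per the labels, the authors trimmed reads with Trimmomatic 0.39, quantified them with Salmon 1.8.0 and deposited raw counts per Ensembl gene (17477 genes, each with at least 100 counts in total); the processing notes name DESeq2 1.24.0 as well. The annotation release is not given in the sources used here. Symbols were matched to 94.1% of IDs, and transcript length and GC to 91.3%, from GENCODE vM1. Each sex was fitted in edgeR 4.0.16 (R 4.3.3; filterByExpr with a minimum count of 10 and total of 15, TMM, quasi-likelihood test, Benjamini-Hochberg adjustment over all genes tested, threshold 0.05) with surrogate variables from sva 3.50.0 (20 permutations, seed 1; 3 in females, 2 in males and 4 over all mice). Depth was 18809307 to 100844898 counts. Within groups no 2 columns looked like repeat counts of 1 library: chi-square per degree of freedom was at least 8.91 over 98 pairs. Pairs across groups were not compared. Relations used log2 CPM (prior count 2), group means removed and 100000 permutations. The named genes were the 10 members, the further pathway genes called in either sex with the 3 of smallest p where fewer passed, and the 5 genes most like Nrarp in each sex. Members, lists and rules were chosen with earlier results of these data known. Code was tested on simulated data. Alternatives were no surrogate variables, DESeq2 1.42.0, its size factors, no filter, the label digit, limma 3.58.1 voom weights, removal of length and GC trends (lowess, span 0.3), 1 fit for all groups, a prior count of 0.5, all males in the relations, removal of SI males 25, 33 and 39, and each mouse left out. The values of 1 further pathway gene are not reported here.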

Additional observations from a re-analysis of the deposited data

Results flagged for a closer look

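Among the 40 values of members by group, the gap of the highest or lowest mouse to its nearest neighbour was large for 3. Chance alone gives about 1 in 20 of such values, so 3 of 40 is near that rate. The members also share libraries, so these values are not independent. Notch1 in SI female 53 was 26.8 CPM against 35.8 CPM in the next lowest SI female. Hes1 in GH female 78 was 16 CPM against 12.3 CPM in the next. Hey1 in GH male 15 was 56.6 CPM against 50.8 CPM in the next. Animals 53 and 78 had the lowest length slopes of their groups, -0.13 and -0.11 per doubling, and GH male 15 had -0.04, also the lowest of GH males; the part of this in the values was not tested.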

How the results depend on the processing

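Nrarp in females kept a Log2FC between -0.45 and -0.37 over the 8 alternatives, a description since it was chosen on this contrast. Without surrogate variables and with the label digit as a factor, 0 members and 0 further pathway genes were called in females, and no gene of the table. DESeq2 called 2 members in females (Notch1 beside Nrarp), 5 further pathway genes in females, 1 in males (Neurl1b) and 2 members between GH females and GH males (Notch2 beside Nrarp). Removal of length and GC trends gave 8 further pathway genes in females. Between GH females and GH males 0 members were called without surrogate variables and 0 without SI males 25, 33 and 39. With the length slope removed, 0 relations of Nrarp passed, and with all 15 males that with Jag1 in males also passed, by rho alone. Leaving out each mouse gave 1 to 2 members in females (2 without GH 46, which adds Notch2, or without SI 52 or GH 79, which adds Notch1), 0 to 2 members in males, 1 to 6 further pathway genes in females (1 without SI 45 or SI 63, 6 without SI 52), 0 to 17 in males, and 1 to 2 members between GH females and GH males, where Notch2 joined. The 2 members (Notch1 and Notch2) and 17 further genes in males came without SI 27, which also called 2414 genes of the table. Calls over all genes in females ran from 88 without SI 68 to 1427 without GH 78, and were 1262 with DESeq2 and 1519 with trends removed. The cause was not tested. Nrarp in males ran from -0.23 to -0.01. The count of members called for the interaction and the count of marker lists that passed were the same. Calls over all genes for the interaction were 0 in the main fit, but 8 with DESeq2, 281 without SI 27 and 385 without SI 7. No paired analysis was possible because each animal number belongs to 1 mouse, so the groups share none. Some genes rest on few counts, down to 71 for Dll1, 40 for Dll3 and 38 for Hes7 in a library, where counting error adds to the spread between mice.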
